A study of Mus musculus with 16 samples.

Results

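Serpins are a family of proteins that share a fold with an exposed loop. In most members the loop is cut by a target protease, which is then trapped in an irreversible complex, and each member prefers certain serine or cysteine proteases. Some members, such as the collagen chaperone Serpinh1, have no known protease target. In male accessory glands protease inhibitors are secreted into seminal fluid, where protease activity takes part in the liquefaction of semen, and other serpins act inside leukocytes and epithelial cells against proteases that leak from granules.

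The serpin genes were taken as all genes whose symbol consists of Serpin, a clade letter from a to i, a number and any further letter. They numbered 62 of 31274 genes in the expression table. Seminal vesicles of C57BL/6 mice were profiled by RNA-seq at 5 weeks of age in 4 groups of 4 samples, and the question was whether neonatal oestrogen exposure leaves lasting changes and whether these need oestrogen receptor α (ERα). Wild-type pups given corn oil were WT-veh, and wild-type pups given the synthetic oestrogen diethylstilbestrol (DES) in corn oil were WT-DES. The same 2 treatments in mice with a global disruption of Esr1, the gene of ERα, were αERKO-veh and αERKO-DES. DES was injected subcutaneously at 2 µg per pup per day from day 1 to day 5. The wild-type pups were born to purchased pregnant females and the αERKO mice were bred from heterozygous parents, so genotype cannot be told apart from colony and litter in any difference between WT and αERKO groups. The disruption was present in all cells of the animal from conception, so that development without ERα preceded the treatment. The RNA extraction was described for 4 single mice in 3 of the groups but for 3 pools of mice in WT-DES, whereas 4 WT-DES libraries were given. The p-values below therefore measure the spread between these libraries, some of which may hold pooled animals.

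Levels are FPKM, fragments scaled by transcript length and by the mapped total of each library, so that genes of different length can be compared. A gene was tested if its mean exceeded 1 FPKM in at least 1 group. It was called between 2 groups at a Benjamini-Hochberg adjusted p of at most 0.05 in limma on log2(FPKM + 1), group means at least 1.5-fold apart, and more than 1 FPKM on average in either of those groups. The 16 libraries held no read counts, so depth is unknown. Their summed FPKM ran from 375207 to 437619 in WT-DES and from 479045 to 652708 in the other groups. Esr1 itself was listed at 0.91 to 1.75 FPKM in the 8 αERKO samples, 2.81 to 4.55 in WT-veh and 8.74 to 19.6 in WT-DES, so every αERKO sample lay below every wild-type sample. All values come from whole tissue, in which fewer cells of a type and less RNA per cell cannot be told apart.

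Of the 62 serpin genes, 24 were tested and 38 did not reach the minimum. Among the 38, 8 were listed at 0 in every sample (Serpinb3c, Serpinb3d, Serpinb6d, Serpinb9c, Serpinb9d, Serpinb9e, Serpinb9f and Serpinb9g) and the other 30 had their highest value at or below 1.41 FPKM, which Serpinb10 had in WT-DES 4. These low members included the circulating liver serpins, with antithrombin (Serpinc1) at most at 0.17, heparin cofactor II (Serpind1) at most at 0.40 and α2-antiplasmin (Serpinf2) at most at 0.29 FPKM. Protein C inhibitor, Serpina5, which is known as an abundant serpin of human seminal fluid, was listed at 0.17 to 0.39 FPKM in WT-veh and at 0 in all 4 WT-DES samples, and in αERKO at 0 to 0.16 with vehicle and 0.07 to 0.23 with DES. The remaining low members were Serpina10, Serpina11, Serpina12, Serpina1a, Serpina1b, Serpina1c, Serpina1d, Serpina3a, Serpina3j, Serpina3k, Serpina6, Serpina7, Serpina9, Serpinb12, Serpinb13, Serpinb1b, Serpinb1c, Serpinb2, Serpinb3b, Serpinb6c, Serpinb6e, Serpinb7, Serpinb9b, Serpine3 and Serpini2. Of the 24 tested members, 17 exceeded 1 FPKM in WT-veh and 23 in WT-DES, against 17 with vehicle and 15 with DES in αERKO. Serpina1e, Serpina3f, Serpina3h, Serpina3i, Serpina3m, Serpinb11 and Serpinb3a passed only through WT-DES, so these 7 could differ only upward in that group.

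In wild-type seminal vesicle, Serpine2 was the most abundant serpin transcript in every WT-veh sample, and after neonatal DES this was no longer so. The summed FPKM of the 62 members ran from 1387 to 1424 in WT-veh, and from 1045 to 1083 in WT-DES. As a share of all FPKM in the sample it went the other way, from 0.218 to 0.236% in WT-veh against 0.239 to 0.283% in WT-DES, without overlap. Serpine2 made up 50.7% ± 2.89 (SD, n = 4) of this sum in WT-veh and 8.19% ± 3.51 in WT-DES. Its share in αERKO was 55.0% ± 3.47 with vehicle and 60.9% ± 3.97 with DES. The share of Serping1, C1 inhibitor, was 9.58% ± 0.844 in WT-veh and 28.9% ± 2.53 in WT-DES. By mean FPKM the order in WT-veh was Serpine2 (708), Serpinb6a (180), Serpinh1 (163), Serping1 (134), Serpinf1 (86.3) and Serpina1f (58.6), and the same 6 genes in the same order led both αERKO groups. In WT-DES the order was Serping1 (308), Serpinh1 (203), Serpinf1 (149), Serpinb6a (101), Serpine2 (87.1) and Serpina3n (59.4). Neighbours in that order whose samples overlapped were Serpinh1 and Serpinf1, Serpinb6a and Serpine2, and Serpine2 and Serpina3n. In WT-veh they were Serpinb6a and Serpinh1, Serpinh1 and Serping1, and Serpinf1 and Serpina1f.

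**Figure D1:**
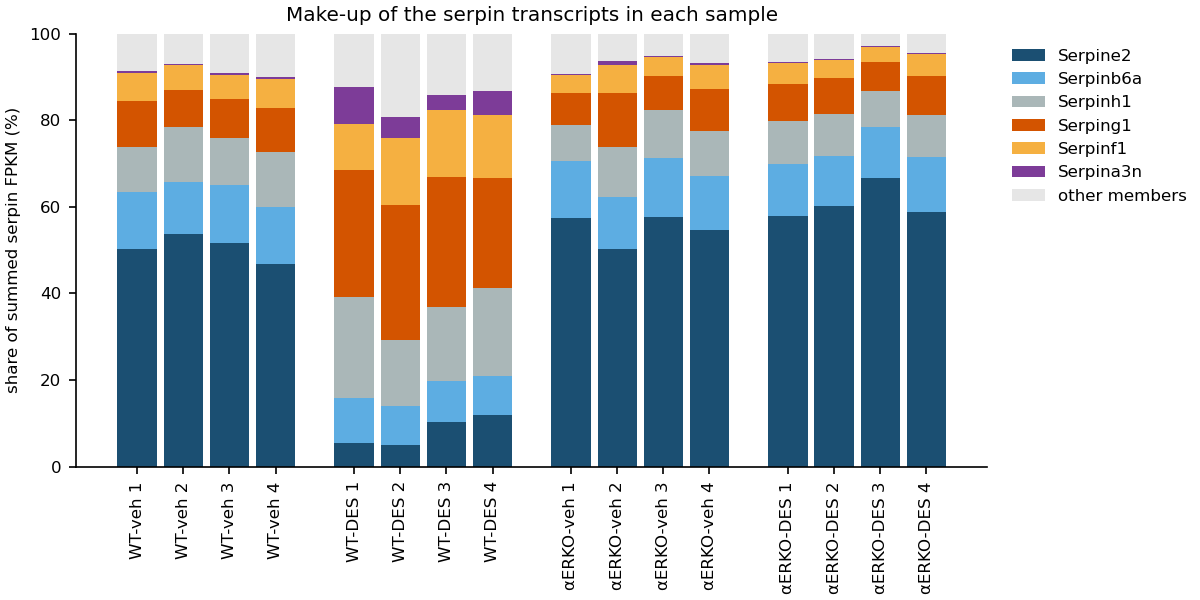
Share of each named serpin gene in the summed FPKM of the 62 members (%, y axis) in each of the 16 samples (x axis), with the other members in pale grey. Serpine2 makes up 46.8 to 66.7% of the sum in the 12 samples of the other 3 groups and 4.98 to 11.97% in the 4 WT-DES samples.

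WT-DES differed from WT-veh at 16 of the 24 tested members, of which 14 were higher and 2 lower. Over all 15988 genes tested, 52.7% were called in this comparison, 28.9% as higher and 23.9% as lower. Rescaling each library without the 20 most abundant genes turned the 4613 higher and 3815 lower genes into 6745 and 1831, and the 14 higher and 2 lower members into 16 and 1. The median log2 change was 0.73 over the 24 members and -0.01 over all genes tested. Among the 17 members that also passed through another group, 9 rose and 2 fell by these calls, and the median log2 change was 0.52. The 7 that passed only through WT-DES held 5 called higher. The groups did not overlap at 14 of the 24 members, against 66.7% of all genes tested. The higher members included Serpina1e, Serpina3c, Serpina3f, Serpina3g, Serpina3h, Serpina3i, Serpina3m, Serpina3n, Serpinb6b, Serpinb9, Serpinf1, Serping1 and Serpini1, and the 2 lower ones were Serpine2 and Serpinb6a. Of the clade A genes, 5 passed only through WT-DES and were all called higher, a direction that the minimum fixed, and 3 of the 5 others were called higher. In clade B 2 of the 6 genes that also passed through another group were higher and 1 lower. In αERKO mice DES changed 1 of the 24 members, Serpina3c, which was lower, where 1.49% of all genes tested were called and 1.41% were called lower.

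**Figure D2:**
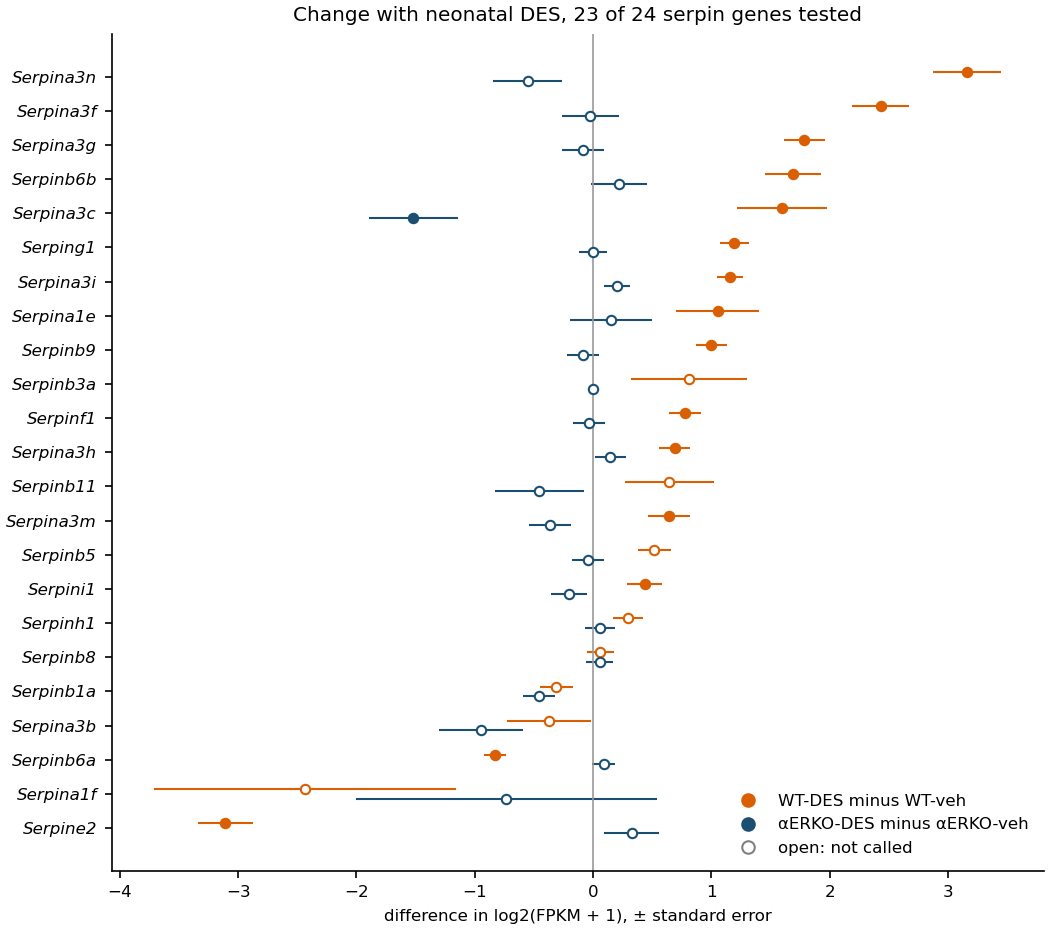
Difference in log2(FPKM + 1) with DES (x axis, error bars standard error) for 23 of the 24 tested serpin genes (y axis), in wild type (orange) and in αERKO (dark blue), with filled points called and open points not called. In wild type Serpina3n has the largest rise and Serpine2 the largest fall of those plotted, and in αERKO 1 gene is called, Serpina3c.

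The change with DES in wild type minus that in αERKO was called at 14 members, 12 with a positive and 2 with a negative difference. This difference was called when its adjusted p was at most 0.05 and its size at least 1.5-fold on the log2(FPKM + 1) scale. Over all genes tested 56.4% were called, 29.6% with a positive and 26.9% with a negative difference, and rescaling turned 4729 positive and 4296 negative differences into 7118 and 1969, and the 12 and 2 members into 16 and 1. Of the 12 positive members, 3 passed only through WT-DES, and the 17 others held 9 positive and 2 negative differences. The 14 were the members called in wild type other than Serpina1e and Serpina3h. αERKO-DES differed from WT-DES at 17 members, of which 2 (Serpine2 and Serpinb6a) were higher and 15 lower, where 53.4% of all genes were called, 23.7% as higher and 29.6% as lower. Rescaling turned these 3797 higher and 4740 lower genes into 2031 and 6378, and the 2 and 15 members into 1 and 16. Of the 15 lower members, 5 passed only through WT-DES, and the 17 other members held 2 higher and 10 lower. These comparisons share the WT-DES samples, so they do not count as separate evidence.

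**Figure D3:**
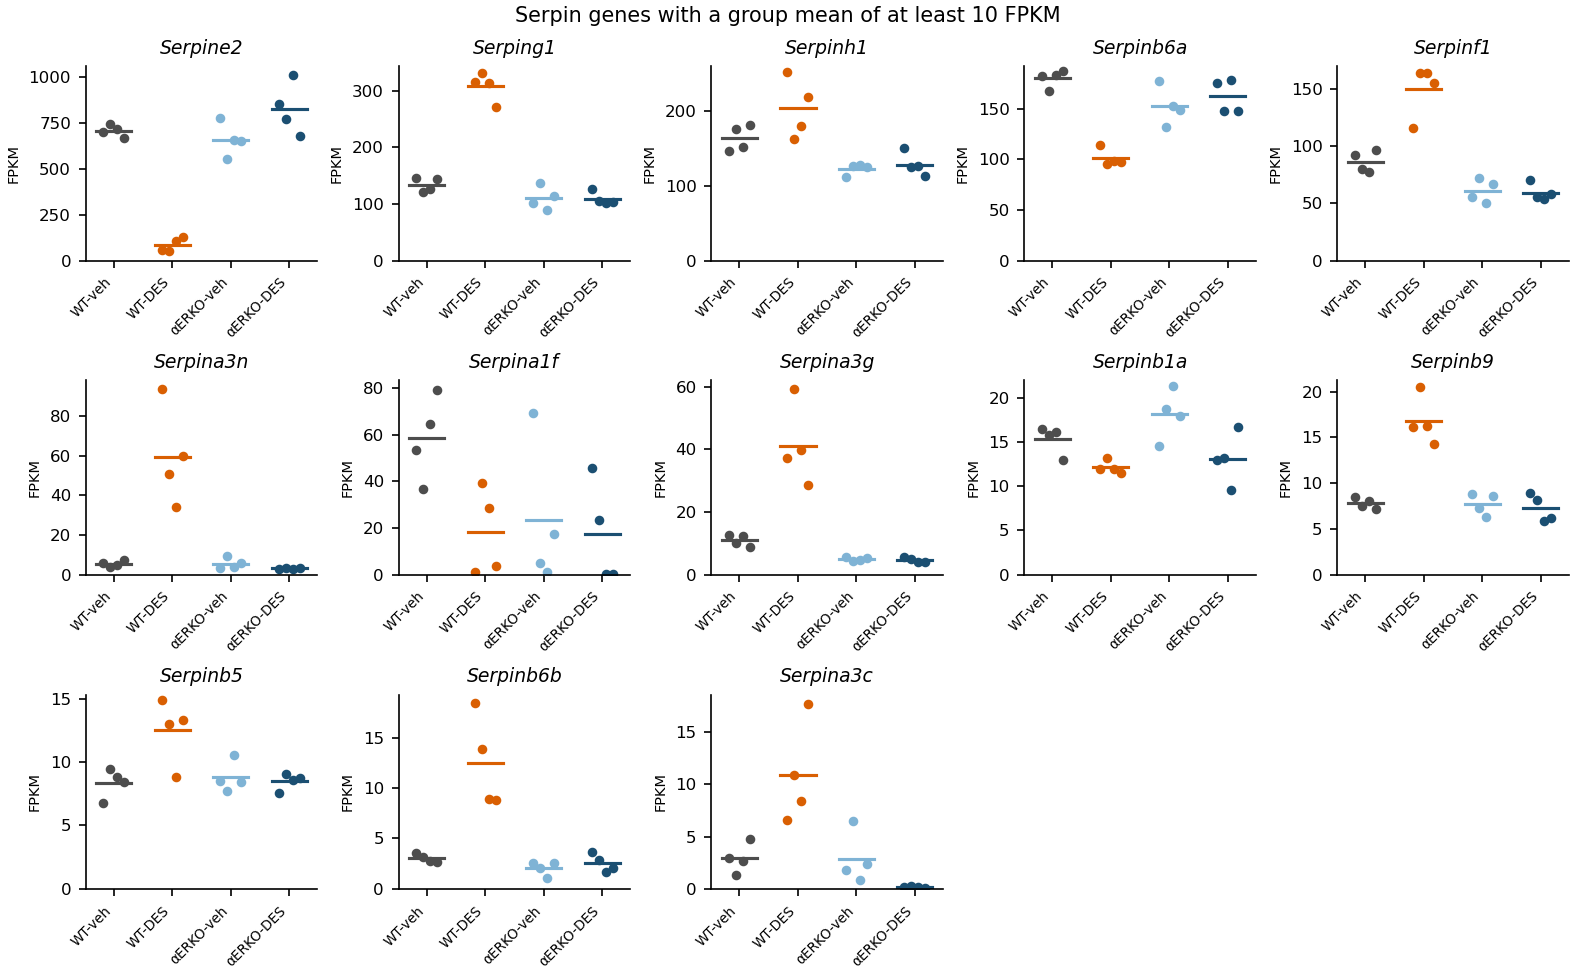
FPKM (y axis, linear from 0) of the 13 serpin genes with a mean of at least 10 FPKM in a group, with 1 point per sample and a bar at the mean of the 4 samples of each group (x axis). Serpine2 lies between 552 and 1012.5 FPKM in all samples outside WT-DES and between 52.9 and 128 in WT-DES, and Serpina1f spreads widely within every group.

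Serpine2, protease nexin-1, is a secreted and cell-bound inhibitor of thrombin, plasmin and both plasminogen activators, and is known as a product of mouse seminal vesicle. The gene lies on the minus strand at chr1:79794197-79861180 (GRCm38). It stood at 702, 747, 717 and 667 FPKM in WT-veh and at 58.9, 52.9, 108 and 128 in WT-DES. The αERKO samples had 777, 552, 656 and 651 with vehicle and 854, 771, 1012.5 and 679 with DES. The 4 WT-DES values lay far below the 12 others, which overlapped among the remaining groups. The mean fell 8.13 times with DES in wild type (log2 change -3.11 ± 0.23 SE, adjusted p = 2.46e-08), and the difference between genotypes was -3.43 ± 0.33 (adjusted p = 5.28e-07). It moved with the seminal vesicle secretion markers, 7 of 7 of which were called lower in WT-DES. Their summed level was 46166 to 54055 FPKM in WT-veh and 2372 to 7708 in WT-DES. The 5 anterior prostate markers were all called lower too, with a sum of 6947 to 11212 FPKM in WT-veh and 92.2 to 661 in WT-DES. Of the 5 luminal epithelial markers 4 were called lower, with a sum of 1025 to 1126 FPKM in WT-veh and 569.9 to 785 in WT-DES. Of the 5 smooth muscle markers 4 were called lower, with a sum of 2771 to 3433 FPKM in WT-veh and 747.5 to 3165 in WT-DES. Of the 4 skeletal muscle markers 2 were called lower, with a sum of 532 to 1012 FPKM in WT-veh and 26.9 to 316 in WT-DES. The part of these markers in the Serpine2 result was not tested.

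The 250 bases before the start of Serpine2 are shown because they differ from those of the clade A genes below. In RefSeq (GRCm38.p6) they lie at chr1:79858666-79858915 on the minus strand, inside the bounds that GENCODE gives the gene, and are written 5′ to 3′, with capitals marking GGGCGG on either strand, the GC box, including overlapping copies.
Serpine2: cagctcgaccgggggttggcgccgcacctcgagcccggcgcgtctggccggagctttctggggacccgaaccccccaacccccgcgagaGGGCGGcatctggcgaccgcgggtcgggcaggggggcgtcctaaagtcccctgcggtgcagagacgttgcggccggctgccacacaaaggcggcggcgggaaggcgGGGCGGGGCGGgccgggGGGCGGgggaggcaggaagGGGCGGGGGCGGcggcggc
The window was 78.8% G and C with 34 CpG dinucleotides and 6 GC boxes. Of 32851 RefSeq windows of the same length, 32.7% held a GC box and 1.72% had as high a G and C content, the median being 52.4%.

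Serpini1, neuroserpin, an inhibitor of tissue plasminogen activator, was 1.43 to 1.86 FPKM in WT-veh and 1.82 to 3.73 in WT-DES, with overlap. It was called higher (log2 change 0.44 ± 0.15 SE, adjusted p = 0.0150), but with quantile normalization the log2 change was -0.04, and the call was lost without WT-DES 3 (log2 change 0.31, adjusted p = 0.0580).

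**Figure D4:**
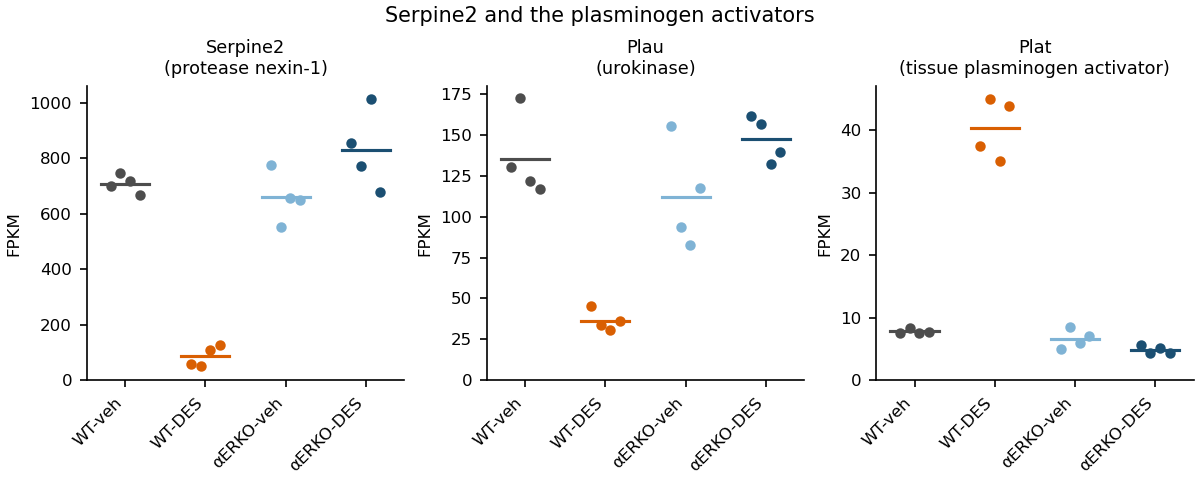
FPKM (y axes, from 0) of the inhibitor Serpine2 and of the plasminogen activators Plau and Plat, with 1 point per sample and a bar at the group mean (x axis: groups). Serpine2 and Plau are lower and Plat is higher in WT-DES than in the other 3 groups by group mean.

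The proteases and cofactors listed further below did not all change in the same direction with DES in wild type. Plau, urokinase, was 117 to 173 FPKM in WT-veh and 30.9 to 45.2 in WT-DES, 3.71 times lower by mean (log2 change -1.86 ± 0.18 SE, adjusted p = 2.62e-07). Plat, tissue plasminogen activator, was 7.53 to 8.32 FPKM in WT-veh and 35.1 to 44.99 in WT-DES, 5.17 times higher (log2 change 2.23 ± 0.12 SE, adjusted p = 1.76e-09). Proc, protein C, was 6.38 to 9.35 FPKM in WT-veh and 0.34 to 0.91 in WT-DES, and was called lower. For none of these 3 genes did the 2 groups overlap. Plat and Proc were singled out here after their values were seen, so these genes do not stand for the list as a whole.

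Serping1 is C1 inhibitor, which inactivates the complement proteases C1r and C1s and plasma kallikrein. It lies at chr2:84765387-84775444 and stood at 146, 121, 125.9 and 144 FPKM in WT-veh and at 315, 331, 313 and 271 in WT-DES. Without ERα the values were 102, 138, 88.6 and 114 with vehicle and 125.9, 105, 103 and 104 with DES. Every WT-DES value lay above every other value, and the mean was 2.30 times that of WT-veh (log2 change 1.19 ± 0.12 SE, adjusted p = 4.69e-07; difference between genotypes 1.20 ± 0.17, adjusted p = 1.99e-05). Of its targets, C1s was 41.6 to 57.2 FPKM in WT-veh and 153 to 178 in WT-DES and was called higher. C1ra was 89.7 to 129 FPKM in WT-veh and 73.1 to 86.8 in WT-DES, a ratio of 0.744 that was not called.

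Serpinf1, pigment epithelium-derived factor, an antiangiogenic secreted serpin without known protease target, stood at 92.1, 79.8, 76.9 and 96.6 FPKM in WT-veh and at 115, 164, 164 and 155 in WT-DES. Its αERKO values were 55.6, 71.7, 50.2 and 66.8 with vehicle and 70.1, 55.6, 53.6 and 58.1 with DES. All WT-DES values were above, and all αERKO values below, all WT-veh values. The rise with DES in wild type was 1.73 times (log2 change 0.78 ± 0.14 SE, adjusted p = 0.000107). The step from WT-veh to αERKO-veh had a ratio of 0.707 (log2 change -0.50 ± 0.14 SE, adjusted p = 0.0176) and fell short of the fold needed for a call.

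Serpinh1, the chaperone HSP47 that folds procollagen in the endoplasmic reticulum, stood at 146, 176, 151 and 181 FPKM in WT-veh and at 252, 163, 179 and 218 in WT-DES. In αERKO it stood at 111, 126.2, 127 and 125 with vehicle and at 150, 124, 125.8 and 113 with DES. The wild-type groups overlapped, and the ratio of 1.24 (log2 change 0.30 ± 0.13 SE, adjusted p = 0.0463) was not called. With quantile normalization the log2 change was 1.06 and with rescaling 0.73, and both were called. αERKO-DES was lower than WT-DES (log2 change -0.65 ± 0.13 SE, adjusted p = 0.000302), a call that was lost without WT-DES 1 (log2 change -0.53). The 6 fibroblast markers, including the collagens that Serpinh1 serves, were all called higher in WT-DES, with a summed level of 731 to 881 FPKM in WT-veh and 1916 to 2091 in WT-DES. Their part in the levels of Serping1, Serpinf1 and Serpinh1 was not tested.

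Clade A genes of the antichymotrypsin group, Serpina3, lie in a row on chromosome 12, within the stretch chr12:103614786-104414329 that holds 23 of the members. Human antichymotrypsin is encoded by a lone gene, whereas mice carry many copies with different reactive loops. Of the windows of 1 read length in their transcripts, 0.7% for Serpina3f, 0.6% for Serpina3g, 0.8% for Serpina3i and 2.8% for Serpina3m also occurred in another serpin gene, so most reads of this length could be placed. Of the 8 tested Serpina3 genes, 4 (Serpina3f, Serpina3h, Serpina3i and Serpina3m) passed the minimum only through WT-DES, so they could come out only higher there. Of the other 4, Serpina3c, Serpina3g and Serpina3n were called higher and Serpina3b was not, where 28.9% of all genes were called higher.

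Serpina3n, an acute-phase serpin that inhibits granzyme B and neutrophil proteases, showed the largest rise in log2(FPKM + 1) among the members. By ratio of means Serpina3f (32.4) and Serpina1e (11.8), both called, rose more, from low levels in WT-veh. Serpina3n stood at 5.71, 3.88, 4.81 and 7.52 FPKM in WT-veh and at 93.4, 50.6, 34.1 and 59.6 in WT-DES. Without ERα the values were 3.40, 9.49, 3.62 and 5.71 with vehicle and 3.05, 3.13, 3.1 and 3.49 with DES. All 4 WT-DES values lay above all others, with a mean 10.8 times that of WT-veh (log2 change 3.16 ± 0.29 SE, adjusted p = 1.87e-07). The difference between genotypes was 3.71 ± 0.41 (adjusted p = 1.97e-06).

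Serpina3g, an intracellular serpin that inhibits cathepsins and protects lymphocytes, differed between the vehicle groups as well as with DES. It stood at 12.6, 9.97, 12.3 and 8.95 FPKM in WT-veh and at 37.3, 59.3, 39.7 and 28.5 in WT-DES. Its αERKO values were 5.63, 4.33, 4.73 and 5.26 with vehicle and 5.66, 4.85, 4.18 and 3.97 with DES. WT-DES lay above WT-veh and WT-veh above both αERKO groups without overlap. The mean rose 3.77 times with DES in wild type (log2 change 1.79 ± 0.18 SE, adjusted p = 3.70e-07). It was 2.19 times lower in αERKO-veh than in WT-veh (log2 change -0.99 ± 0.18 SE, adjusted p = 0.00518), the 1 member called in that comparison, where 7.12% of all genes were called and 2.63% were called lower. Of all genes 719 were higher and 420 lower in that comparison, and 1453 and 122 after rescaling, while Serpina3g stayed called. Against WT-veh, αERKO-DES was 2.34 times lower (log2 change -1.07 ± 0.18 SE, adjusted p = 0.00375).

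Serpina3f was 0.05 to 0.25 FPKM in WT-veh and 3.55, 9.48, 7.66 and 2.98 in WT-DES, and at most 0.27 in both αERKO groups. Its log2 change was 2.43 ± 0.24 SE (adjusted p = 4.00e-07), in a direction that the minimum fixed. Serpina3i was 0.21 to 0.37 FPKM in WT-veh, 2.12, 2.05, 1.74 and 1.68 in WT-DES and at most 0.69 in αERKO (log2 change 1.16 ± 0.11 SE, adjusted p = 2.58e-07). These 2 genes were below 1 FPKM in every sample outside WT-DES, and WT-DES did not overlap the other groups. With quantile normalization the Serpina3i difference between genotypes was 0.34 (adjusted p = 0.0884) and no longer called. Serpina3h was 0.27 to 0.69 FPKM in WT-veh and 1.02 to 1.92 in WT-DES. Serpina3m was 0.16 to 0.44 FPKM in WT-veh and 0.78, 0.64, 0.64 and 2.14 in WT-DES, with WT-DES 4 apart from the other 3. In αERKO Serpina3m was 0.34 to 0.58 FPKM with vehicle and 0.03 to 0.13 with DES, without overlap, but it was not called (adjusted p = 0.210). The calls of Serpina3h and Serpina3m were lost with quantile normalization, with adjusted p of 0.0843 and 0.0639. Serpina1e, an α1-antitrypsin gene, was 0.77, 3.11, 0.06 and 3.0 FPKM in WT-DES and at most 0.43 in WT-veh, with overlap. Its call (adjusted p = 0.0132) was lost when WT-DES 2 or WT-DES 4 was left out (adjusted p = 0.0510 and 0.0502), and 10.8% of its windows of 1 read length also occur in other α1-antitrypsin genes, so its level is uncertain.

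Serpina3c was called with DES in both genotypes, in opposite directions. It stood at 2.94, 1.30, 2.65 and 4.75 FPKM in WT-veh and at 6.60, 10.9, 8.37 and 17.7 in WT-DES. The αERKO samples had 1.78, 6.54, 0.83 and 2.42 with vehicle and 0.16, 0.31, 0.20 and 0.06 with DES. It was therefore highest in WT-DES and lowest in αERKO-DES, and neither group overlapped any other, though αERKO-veh 2 nearly reached the lowest WT-DES value. The mean was 3.75 times higher with DES in wild type (log2 change 1.60 ± 0.38 SE, adjusted p = 0.00139) and 15.8 times lower with DES in αERKO (log2 change -1.52 ± 0.38 SE, adjusted p = 0.0456). Against WT-veh, αERKO-DES was lower at 2 members, Serpina3c and Serpina3g, where 3.18% of all genes were called and 1.97% were called lower. The fall in αERKO lost its call under 15 of 26 alternatives, 11 of which left out a sample, with the highest adjusted p, 0.159, without αERKO-veh 2 (log2 change -1.14). Against WT-veh it was lost without WT-veh 4 (adjusted p = 0.0687), αERKO-DES 3 (0.0571) or αERKO-DES 4 (0.0621).

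Beside Serpina3c moved the adipocyte markers, of which 2 of 4 were called higher with DES in wild type and 3 of 4 lower with DES in αERKO. Plin1, which coats fat droplets, was 10.6, 2.56, 13.1 and 15.8 FPKM in WT-veh and 22.95, 60.5, 23.9 and 63.8 in WT-DES. Its αERKO values were 6.51, 32.7, 0.70 and 8.53 with vehicle and 0.79, 0.76, 0.43 and 0.06 with DES. Within each of the groups other than αERKO-DES, the samples with the highest and the lowest Serpina3c were also those with the highest and the lowest Plin1. In WT-DES, Adipoq, Cfd, Fabp4 and the sum of the 4 markers were lowest in WT-DES 3 instead (sum 774 against 1056 FPKM in WT-DES 1). The 4 markers summed to 202 to 999.7 FPKM in WT-veh and 774 to 1756 in WT-DES, and in αERKO to 85.6 to 981 with vehicle and 16.8 to 58.7 with DES. None of them was at 0 in a whole group. Their part in the Serpina3c result was not tested. Serpina3b also stood highest in αERKO-veh 2, at 3.77 FPKM, and at 0.00 to 0.05 in αERKO-DES, and was not called in any comparison.

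The sequences before the starts of 5 Serpina3 genes are shown because neighbours that moved alike and neighbours that did not can be compared in them. All are the 250 bases before the RefSeq start (GRCm38.p6), written 5′ to 3′ on the strand of the gene. In Serpina3c (chr12:104153873-104154122, minus strand) and Serpina3n (chr12:104406458-104406707, plus strand), capitals mark the longest run that the 2 have in common, of 64 bases. In Serpina3f (chr12:104214294-104214543), Serpina3g (chr12:104235897-104236146) and Serpina3i (chr12:104262872-104263121), all on the plus strand, capitals mark TTCNNNGAA, the pattern of the gamma-interferon activation site that STAT factors bind.
Serpina3c: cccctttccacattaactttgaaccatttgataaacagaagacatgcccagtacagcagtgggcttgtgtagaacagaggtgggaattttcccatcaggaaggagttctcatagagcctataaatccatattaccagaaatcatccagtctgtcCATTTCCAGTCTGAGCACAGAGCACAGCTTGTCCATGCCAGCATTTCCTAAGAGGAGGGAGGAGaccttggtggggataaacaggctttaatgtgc
Serpina3n: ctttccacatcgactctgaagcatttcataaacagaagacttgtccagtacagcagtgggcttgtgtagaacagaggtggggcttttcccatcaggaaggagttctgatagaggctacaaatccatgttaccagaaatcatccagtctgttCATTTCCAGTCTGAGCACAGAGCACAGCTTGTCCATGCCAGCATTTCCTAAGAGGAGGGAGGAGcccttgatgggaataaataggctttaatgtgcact
Serpina3f: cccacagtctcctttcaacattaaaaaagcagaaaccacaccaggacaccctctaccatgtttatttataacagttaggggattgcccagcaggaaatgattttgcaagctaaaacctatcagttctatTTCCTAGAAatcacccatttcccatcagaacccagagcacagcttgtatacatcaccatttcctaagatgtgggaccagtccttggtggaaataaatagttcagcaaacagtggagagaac
Serpina3g: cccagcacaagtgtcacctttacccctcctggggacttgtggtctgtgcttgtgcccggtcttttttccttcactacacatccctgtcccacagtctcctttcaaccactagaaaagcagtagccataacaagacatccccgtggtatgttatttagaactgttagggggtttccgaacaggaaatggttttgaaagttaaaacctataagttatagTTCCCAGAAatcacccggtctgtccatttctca
Serpina3i: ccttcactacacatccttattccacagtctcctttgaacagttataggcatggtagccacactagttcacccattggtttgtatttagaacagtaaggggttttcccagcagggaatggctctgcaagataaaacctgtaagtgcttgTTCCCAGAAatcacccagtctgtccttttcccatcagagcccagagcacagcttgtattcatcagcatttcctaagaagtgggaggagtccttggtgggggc

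The windows of Serpina3c and Serpina3n were identical at 229 of 247 aligned bases (92.7%), although the level of Serpina3n was 1.58 to 2.98 times that of Serpina3c in WT-veh, 3.36 to 14.2 times in WT-DES, 1.45 to 4.36 times in vehicle-treated αERKO and 10.1 to 58.2 times in αERKO-DES, sample by sample. Serpina3n thus had nearly the same level in the 4 αERKO-DES samples as in the lower αERKO-veh samples, while Serpina3c was close to 0 there. TTCNNNGAA occurred 121, 33 and 102 bases before the start of Serpina3f, Serpina3g and Serpina3i and in neither Serpina3c nor Serpina3n. Among the tested members it also occurred before Serpinb6a, which was called lower in WT-DES, and Serpina1f, which was not called. It was found in 7.02% of all RefSeq windows of this length and in 8 of the 52 member genes with a window. The palindromic oestrogen response element, GGTCANNNTGACC, was found in 0.0639% of all windows and in 0 member genes, and the palindromic androgen response element, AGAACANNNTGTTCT, in 0.00913% and in 0 member genes, which says only that these letters are not in these windows. Both strands were searched, and no window was found for Serpina3h, Serpina3m, Serpinb1a and Serping1.

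Clade B serpins lack a secretion signal and work mainly inside cells. Serpinb6a, a cytosolic inhibitor of cathepsin G, was the second most abundant serpin transcript in the 3 groups other than WT-DES. It stood at 182, 168, 184 and 188 FPKM in WT-veh and at 114, 95.6, 98.1 and 97.3 in WT-DES. In αERKO it stood at 178, 132, 153 and 149 with vehicle and at 175, 148, 179 and 148 with DES. WT-DES lay below all other samples, and its mean was 1.78 times lower than that of WT-veh (log2 change -0.83 ± 0.10 SE, adjusted p = 1.87e-06). This size depended on the scaling, with a log2 change of -0.15 after quantile normalization and -0.40 after rescaling without the 20 most abundant genes, and neither was called. The difference between genotypes, -0.92 ± 0.13 SE, likewise became -0.06 (adjusted p = 0.511) and -0.36, and its call was lost. Rescaling moved the median log2 change of all genes from -0.01 to 0.37.

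Serpinb6b, a relative on the same chromosome, 13, went the opposite way to Serpinb6a. It stood at 3.51, 3.15, 2.74 and 2.70 FPKM in WT-veh and at 18.4, 13.9, 8.89 and 8.83 in WT-DES. Its αERKO values were 2.59, 2.04, 1.06 and 2.55 with vehicle and 3.70, 2.83, 1.63 and 2.08 with DES. The WT-DES samples did not overlap any others, and the mean was 4.13 times that of WT-veh (log2 change 1.69 ± 0.24 SE, adjusted p = 1.37e-05). The level of Serpinb6b was 0.0144 to 0.0192 of that of Serpinb6a in WT-veh and 0.0906 to 0.161 in WT-DES.

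Serpinb9, which protects cytotoxic lymphocytes and other cells from granzyme B, stood at 8.52, 7.55, 8.10 and 7.19 FPKM in WT-veh and at 16.1, 20.5, 16.3 and 14.3 in WT-DES. The αERKO samples had 8.80, 7.27, 6.34 and 8.62 with vehicle and 8.91, 8.17, 5.84 and 6.21 with DES. WT-DES stood above all other samples at 2.14 times the mean of WT-veh (log2 change 1.00 ± 0.13 SE, adjusted p = 8.92e-06). Its target Gzmb was 2.85 to 4.38 FPKM in WT-veh and 2.31, 15.3, 12.1 and 4.27 in WT-DES, with overlap and without a call. The sample with the highest Gzmb, WT-DES 2, was also that with the highest Serpinb9 and Serpina3g. Serpina3n and Serpinb6b were instead highest in WT-DES 1, the sample with the lowest Gzmb and the lowest cytotoxic marker sum (15.1 FPKM) of that group.

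Leukocyte markers moved with these members. Of 10, 9 were called higher in WT-DES, and the exception, Cd52, was called lower, at 2837 to 3022 FPKM in WT-veh and 282 to 568 in WT-DES. Without Cd52, left out after its values were seen, the other 9 summed to 84.8 to 147 FPKM in WT-veh and 430 to 638 in WT-DES. In αERKO they summed to 55.2 to 88.0 with vehicle and 45.9 to 70.7 with DES. Endothelial and mast cell markers, 4 each, were all called higher in WT-DES. Of the 4 cytotoxic cell markers 3 were called higher, with a sum of 7.51 to 12.2 FPKM in WT-veh and 15.1 to 70.9 in WT-DES. Their part in the levels of Serpina3g, Serpina3n, Serpinb6b and Serpinb9 was not tested.

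None of the remaining tested clade B members was called in any comparison. Serpinb1a, an inhibitor of neutrophil elastase, was 16.4, 15.8, 16.2 and 13.0 FPKM in WT-veh and 11.9, 13.2, 11.99 and 11.5 in WT-DES. In αERKO it was 14.6, 18.8, 21.4 and 17.97 with vehicle and 13.0, 13.2, 9.54 and 16.7 with DES. It was not called in any comparison, and its log2 change with DES in wild type was -0.31 ± 0.14 SE (adjusted p = 0.0530), which turned to 0.09 after rescaling.

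Serpinb5, maspin, a serpin of epithelial cells without protease target, was 6.75, 9.44, 8.79 and 8.43 FPKM in WT-veh and 14.9, 13.0, 8.83 and 13.4 in WT-DES. In αERKO it was 8.47, 7.73, 10.6 and 8.43 with vehicle and 7.56, 9.05, 8.55 and 8.71 with DES. The WT-DES values lay above all others apart from WT-DES 3, which lay among the vehicle values. The adjusted p was 0.00329 and the ratio of means 1.499, just under the 1.5 needed for a call. It was called after each of 3 other scalings or corrections and when WT-veh 2, WT-veh 3, WT-veh 4 or WT-DES 3 was left out (log2 changes 0.57, 0.54, 0.52 and 0.66). Serpinb8, an inhibitor of the furin type of protease, was 4.19 to 6.74 FPKM in all 16 samples and was not called (log2 change with DES in wild type 0.06 ± 0.11 SE).

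Serpinb3a and Serpinb11, serpins of squamous epithelium on chromosome 1, owed their level to WT-DES 4. Serpinb3a was 0.03, 0.03, 0.05 and 7.43 FPKM in WT-DES and listed at 0 in the 12 other samples. Serpinb11 was 0.49, 0.67, 0.19 and 5.24 FPKM in WT-DES and at most 1.12 elsewhere. Neither was called (adjusted p = 0.149 and 0.133). Of the 7 squamous or basal epithelial markers 6 were called higher in WT-DES, with a sum of 140 to 198 FPKM in WT-veh and 290 to 1140 in WT-DES. Krt13, a keratin of stratified squamous epithelium, was 2.56, 14.5, 2.39 and 150 FPKM in WT-DES and at most 0.49 elsewhere, so its highest sample was the same. The sum of the 7 markers was instead highest in WT-DES 1, at 1140 FPKM against 928 in WT-DES 4. The part of these markers in the Serpinb3a and Serpinb11 levels was not tested.

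**Figure D5:**
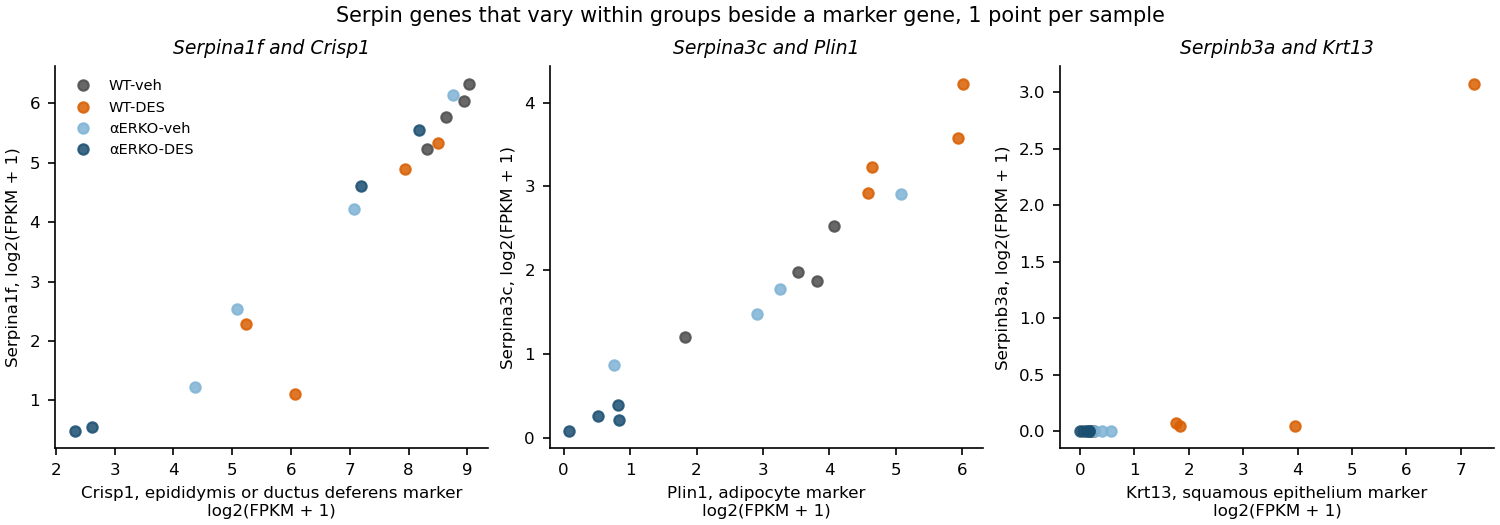
Log2(FPKM + 1) of Serpina1f, Serpina3c and Serpinb3a (y axes) against that of a marker gene (x axes), Crisp1 of epididymis or ductus deferens, Plin1 of adipocytes and Krt13 of squamous epithelium, with 1 point per sample coloured by group. For Serpina1f the samples follow the order of the marker in every group but WT-DES. For Serpina3c they do so in WT-DES and αERKO-veh only. Serpinb3a is above 0.05 FPKM in 1 sample, WT-DES 4.

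Serpina1f, a relative of α1-antitrypsin known from the epididymis, varied widely within groups. It stood at 53.5, 36.6, 64.8 and 79.4 FPKM in WT-veh and at 1.15, 39.4, 28.8 and 3.89 in WT-DES. Without ERα the values were 69.4, 4.81, 1.35 and 17.6 with vehicle and 45.9, 23.3, 0.47 and 0.40 with DES. All groups overlapped, and the log2 change with DES in wild type was -2.44 ± 1.27 SE (adjusted p = 0.0972). In the fit to the 2 wild-type groups alone the same change had an adjusted p of 0.0399.

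Of the 6 epididymis or ductus deferens markers, Crisp1 and Defb42 ran with Serpina1f from sample to sample. Crisp1 was 398, 316, 490 and 519 FPKM in WT-veh and 66.2, 361, 246 and 36.7 in WT-DES. Its αERKO values were 429, 33.0, 19.6 and 133 with vehicle and 288, 146, 5.11 and 3.99 with DES. Within each αERKO group the order of the samples was the same for Crisp1 and Serpina1f. Defb42 was 192 to 287 FPKM in WT-veh and 17.4 in αERKO-veh 2, 11.7 in αERKO-veh 3, 23.8 in αERKO-DES 3 and 13.9 in αERKO-DES 4, the 4 αERKO samples in which Serpina1f was lowest. Lcn5, Lcn8 and Rnase10, further genes of that list, were at or below 0.75 FPKM in all samples, and Adam28 was highest in WT-DES 1, at 27.99 FPKM, where Serpina1f was at 1.15. The 6 markers summed to 515 to 815 FPKM in WT-veh and 117 to 549 in WT-DES, and in αERKO to 44.9 to 686 with vehicle and 25.6 to 601 with DES. Their part in the Serpina1f level was not tested.

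Proteases and cofactors known to meet serpins were taken from a list of 53 genes, of which 36 were tested. With DES in wild type 21 were called higher and 5 lower, with a median log2 change of 0.99, where 28.9% of all genes were higher and 23.9% lower. After rescaling 26 were higher and 4 lower. In αERKO 0 of 36 were called with DES in limma, with 11 at an unadjusted p under 0.05, against 4042 of all 15988 genes tested at that p and 1.49% called. The 3 most abundant were Ctsl, Ctsb and Plau. Cathepsin L (Ctsl) had means of 185 FPKM in WT-veh and 144 in WT-DES and cathepsin B (Ctsb) 132 and 152, and neither was called. The largest ratios belonged to genes near 0 in WT-veh. Elane, neutrophil elastase and a target of Serpina1 and Serpinb1a, was at most 0.06 FPKM in WT-veh and 3.25, 2.22, 1.00 and 2.31 in WT-DES. Prtn3, neutrophil proteinase 3, was 0.08 to 0.32 FPKM in WT-veh and 3.33 to 7.49 in WT-DES. F10, coagulation factor X, was 0.02 to 0.08 FPKM in WT-veh and 8.54, 0.82, 1.77 and 0.98 in WT-DES, so its ratio of 52.7 was 20.7 without WT-DES 1.

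Protease inhibitors of other families were taken from a list of 34 genes, of which 23 were tested. With DES in wild type 9 were called higher and 9 lower, with a median log2 change of 0.01, where 28.9% of all genes were higher and 23.9% lower. After rescaling 9 and 7 were called, beside 6745 and 1831 of 15988 genes. The 3 most abundant were all called lower. Spinkl and Spink3, secreted Kazal-type trypsin inhibitors, had means of 3173 and 3112 FPKM in WT-veh and 182 and 168 in WT-DES, nearly equal values whose split between similar genes is uncertain. Cst3, cystatin C, an inhibitor of cathepsins, fell from 1241 to 583 FPKM by mean. The largest ratios were those of A2m, α2-macroglobulin, at 0.01 to 0.03 FPKM in WT-veh and 0.83 to 2.53 in WT-DES, of Wfdc3, which was 26.9 times lower, and of Spink3, which was 18.5 times lower. Wfdc3 stood at 55.8, 2.19, 106 and 226 FPKM in WT-veh and at 3.14 to 4.63 in WT-DES, so WT-veh 2 lay below every WT-DES sample, and it was 15.1 times lower without WT-veh 4, below Spink3. Spink3 is also among the anterior prostate markers.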

How the data were processed

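Per the labels and methods, total RNA from seminal vesicles was sequenced as read pairs and aligned to mm10 with TopHat2 2.0.4, and the authors computed FPKM with Cufflinks 2.0.2. The deposited table holds FPKM to 2 decimals for 31274 genes, without counts. FPKM divides by each library's total, so a few very abundant transcripts lower all others. From it, log2(FPKM + 1) was fitted in limma 3.58.1 (R 4.3.3) across 15988 genes and 16 samples with a mean per group, moderated with a trend, two-sided and Benjamini-Hochberg adjusted over all genes. Thresholds were those of the study. The fit was tested on simulated data. Changes on this scale understate those of low genes. Gene positions are GENCODE's for GRCm38, and promoter windows RefSeq's for GRCm38.p6.

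The members and lists were chosen with earlier results of these data known. Given by sample were members with a group mean of at least 10 FPKM, the 6 called members with the largest rise and the falls with DES in wild type, and members called within αERKO or between vehicle groups. Alternatives were another pseudocount, other minimum levels, 3 scalings, a transcript length correction, sample weights, a replicate block, each sample left out, and only the 2 groups compared. The rescaled counts of the gene lists, the ratios of list genes without a sample and the leukocyte sum without Cd52 were added after seeing the data. Same-numbered samples did not deviate together, so samples were not paired. The values of 1 member are not reported here, though it is counted among the members.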

Additional observations from a re-analysis of the deposited data

Results flagged for a closer look

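In 14 members the change with DES differed between genotypes by the direct test, of which 13 are given here, where 56.4% of all genes tested were called. The difference in log2 change, wild type minus αERKO, was 3.12 for Serpina3c, 2.46 for Serpina3f, 1.87 for Serpina3g, 0.96 for Serpina3i, 1.00 for Serpina3m and 3.71 for Serpina3n. It was 1.47 for Serpinb6b, 1.09 for Serpinb9, 0.81 for Serpinf1, 1.20 for Serping1 and 0.64 for Serpini1. It was negative for Serpinb6a at -0.92 and for Serpine2 at -3.43. With quantile normalization the calls of Serpina3i (0.34), Serpinb6a (-0.06) and Serpini1 (-0.06) were lost, and with rescaling that of Serpinb6a (-0.36). That of Serpini1 was also lost with the transcript length correction (0.54), without WT-DES 3 (0.52), without αERKO-veh 4 (0.55) and without αERKO-DES 4 (0.58). Serpina3c was called in both genotypes, in opposite directions.

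A sample stood apart from the other 3 of its group in 7 of 73 groups of 4 looked at, where chance flags about 1 in 20. In WT-DES 4 these were Serpina3m at 2.14 FPKM (next 0.78), Serpinb11 at 5.24 (next 0.67) and Serpinb3a at 7.43 (next 0.05). Serpinb6a stood at 114 FPKM in WT-DES 1, against 95.6 to 98.1 in the others. The remaining ones were Serping1 at 125.9 FPKM in αERKO-DES 1 (next 105), Serpinh1 at 111 in αERKO-veh 1 (next 125) and Serpini1 at 1.03 in αERKO-DES 4 (next 1.36).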

How the results depend on the processing

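Across up to 26 alternatives for each result, at most 16 of which left out a sample, 33 of 55 log2 changes of single members kept their direction and call, and 3 reversed. With quantile normalization Serpini1 turned to -0.0394 between WT-DES and WT-veh and to -0.0585 in the difference between genotypes, and with rescaling Serpinb1a, not called, turned to 0.0946. With a minimum mean of 5 FPKM, which tests fewer genes, 10 members were called between WT-DES and WT-veh instead of 16, and 11 between αERKO-DES and WT-DES instead of 17. Between αERKO-DES and αERKO-veh, where 1 was called, the count was 2 with a pseudocount of 0.1, 3 with sample weights, and 0 without a minimum, with quantile normalization, with rescaling or with only the 2 groups compared. Between αERKO-DES and WT-veh it was 4 instead of 2 with only the 2 groups compared. The cause of these changes was not tested. Leaving out 1 sample gave 14 to 17 calls between WT-DES and WT-veh, 1 to 2 between the vehicle groups (2 without αERKO-veh 2), 0 to 1 between αERKO-DES and αERKO-veh, 15 to 19 between αERKO-DES and WT-DES, 1 to 3 between αERKO-DES and WT-veh (1 without WT-veh 4, αERKO-DES 3 or αERKO-DES 4) and 13 to 16 for the difference between genotypes. With the replicate number as a block the 6 counts were 16, 1, 1, 17, 2 and 14, as without it. Same-numbered samples correlated in their deviations from the group means at -0.215 to 0.277, with 3 of 24 pairs over 0.1, so the block pairs no samples. Without read counts, depth limits the values under 1 FPKM to an unknown extent.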
